A study of Mus musculus with 23 samples.

Results

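The cells described here were the members of a surface gate for multipotent progenitor type MPP3, drawn in silico on antibody counts from untransplanted mice. They were chosen by their antibody-derived UMI counts: CD48 above the 50th percentile of the pooled Control cells (more than 723 UMIs), with CD150 and CD135 at or below it (at most 17 and 33 UMIs). Cells in which 3 or more of the B-lineage genes Ebf1, Vpreb1, Vpreb3, Igll1, Cd79a and Pax5 were detected were left out. The gate held 2386 of 50460 cells with at least 1000 UMIs, at least 500 genes and at most 10% mitochondrial UMIs. These thresholds used CD48, CD150 and CD135, so the levels of those proteins and of their genes Cd48, Slamf1 and Flt3 are a description of the choice and are not read as results.

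The cells were c-Kit+ Sca1+ Lineage- (KSL) bone marrow cells, the compartment that holds stem cells and multipotent progenitors, profiled by CITE-seq, in which 3' messenger RNA tags and antibody barcodes are counted in the same droplet. Mice were 2 months old, with 1 male and 1 female library per genotype (Control, Ezh2 KO, Jarid2 KO), 6 libraries in all. The knockouts were Mx1-Cre mice with floxed Ezh2 (Ezh2fl/fl) or Jarid2 (Jarid2fl/fl), and the Control libraries are labelled Mx1-Cre as well. Mx1-Cre is switched on by interferon signalling and acts in many cell types besides blood stem cells, and the Ezh2 and Jarid2 alleles of the Control mice, the induction of Cre and the number of mice behind a library are not stated in the labels. With 1 library per sex and genotype, p-values measure the spread between these libraries only. Ezh2 is the enzyme of Polycomb repressive complex 2 (PRC2), which methylates histone H3 at lysine 27, and Jarid2 is an accessory subunit of that complex.

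Multipotent progenitors lie just downstream of the stem cell and have lost long-term self-renewal. Among them MPP3 is known as the myeloid-biased type, which gives rise mainly to granulocytes and macrophages. Such cells begin to make the azurophil granule proteins (myeloperoxidase from Mpo, and the serine proteases neutrophil elastase, proteinase 3 and cathepsin G from Elane, Prtn3 and Ctsg) under transcription factors such as C/EBP-alpha, encoded by Cebpa. CD48 high cells with high CD135 are known to be lymphoid-primed, those with high CD150 megakaryocyte- and erythroid-biased, and cells low in all 3 markers closer to the stem cell.

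By library, male then female, the number of cells in the gate was 334 and 586 for the Control libraries, 418 and 446 for those of Ezh2 KO and 308 and 294 for those of Jarid2 KO. As a share of kept cells this was 4.66% and 6.93% for the Control libraries, 4.4% and 4.44% for those of Ezh2 KO and 3.96% and 3.9% for those of Jarid2 KO, with exact binomial 95% intervals between 3.48% and 7.5% that cover counting error only. With these limits the Control female library had the largest share and the other 5 lay close together; no test was made, because the limits came from the Control cells. Before B-lineage cells were left out the numbers were 637 and 697 for the Control libraries, 1077 and 732 for those of Ezh2 KO and 390 and 410 for those of Jarid2 KO, so the exclusion took between 15.9% (Control female) and 61.2% (Ezh2 KO male) of it. The raw CD48 counts over all kept cells differed between genotypes, with median UMIs of 862.5 and 648 for the Control libraries, 1553 and 1194 for those of Ezh2 KO and 548 and 433 for those of Jarid2 KO, so 1 raw limit for all libraries took cells from different parts of each library's CD48 distribution. With the limits set within each library instead, the shares were 5.05% and 7.87% for the Control libraries, 2.89% and 4.00% for those of Ezh2 KO and 7.58% and 7.28% for those of Jarid2 KO. The Jarid2 KO libraries, lowest with the shared limits, then lay above the Control male and both Ezh2 KO libraries, so the order of the genotypes depended on how the gate was cut. Summed over the gate's cells, depth ranged from 3263222 to 7682261 gene UMIs per library, and median depth per cell from 8915.5 to 13266.5 UMIs, lowest in Jarid2 KO. Between 9 and 34 kept barcodes were shared by any 2 libraries.

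The label was checked against the markers Cd48, Mpo and Cebpa. Of these, Mpo is the primary-granule peroxidase, and its level in the gate, in CPM (UMIs of the gene scaled to a fixed total of gene UMIs summed over the cells), was 289.5 and 537 CPM in Control, 559 and 336 CPM in Ezh2 KO and 871 and 845 CPM in Jarid2 KO. Cebpa, the transcription factor of early myeloid commitment, was at 27.9 and 53.5 CPM in Control, 33.1 and 34.3 CPM in Ezh2 KO and 33.4 and 35 CPM in Jarid2 KO. Both genes were detected in every library, and Mpo was higher in the gate than in each of the 3 neighbouring gates in all 6 libraries. Mpo UMIs were found in 36.1 to 65.9% of gate cells. After thinning every cell to 3000 UMIs, which left out 4 to 27 shallower cells per library, the share was 22.4 to 38%, against 2.37 to 6.06% in the CD48-low neighbour, whose median depth was 8346.5 to 10048 UMIs. Against the CD135-high neighbour the thinned Mpo share, averaged over libraries, was 27.2% against 17.5%, higher in the gate in 6 of 6 libraries. Cebpa was found in 7.27% of thinned gate cells and 8.99% of that neighbour's, higher in the gate in 2 of 6 libraries. Against the CD150-high and CD48-low neighbours, at 4.50% and 4.38%, Cebpa was higher in 5 of 6 libraries each. The markers were therefore present, but in fewer than all of the cells, and Cebpa did not set the gate apart from the CD135-high neighbour.

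The gate was a mixture of cells with different genes. Cells with 2 or more of Mpo, Elane, Prtn3 and Ctsg, outside the set described next, numbered 164 and 397 for the Control libraries, 212 and 198 for those of Ezh2 KO and 118 and 104 for those of Jarid2 KO. Cells in neither class numbered 131 and 155 for the Control libraries, 163 and 209 for those of Ezh2 KO and 63 and 76 for those of Jarid2 KO. A separate set carried Gata3, the transcription factor of type 2 lymphocytes, Il1rl1, the interleukin-33 receptor, Icos, a T cell costimulatory receptor, Stab2, a scavenger receptor, and Skap1, an adaptor of antigen receptor signalling. Cells with 3 or more of these 5 genes numbered 39 and 34 for the Control libraries, 43 and 39 for those of Ezh2 KO and 127 and 114 for those of Jarid2 KO and are called Gata3-Il1rl1 cells below. As a share of the gate they were 11.7% and 5.8% for the Control libraries, 10.3% and 8.74% for those of Ezh2 KO and 41.2% and 38.8% for those of Jarid2 KO. The 2 Jarid2 KO libraries stood apart from the other 4 and did not overlap with them; the cut was set after these values were seen, so this is a description with no test. After thinning to 3000 UMIs the shares were 8.64% and 5.15% for the Control libraries, 9.66% and 6.48% for those of Ezh2 KO and 35.9% and 36.7% for those of Jarid2 KO. Near the cut, 10 to 23 cells per library had exactly 2 of the genes. Exactly 3 were found in 18 and 12 of the Gata3-Il1rl1 cells for Control and 15 and 14 for Ezh2 KO. For Jarid2 KO the numbers were 10 and 8, out of 127 and 114, so a smaller part of its set lay at the cut.

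**Figure D1:**
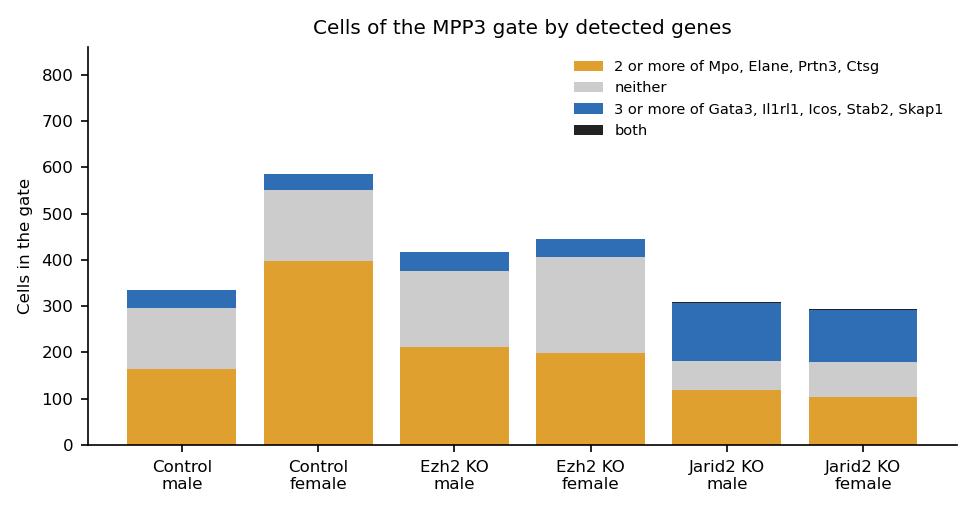
Number of gate cells per library (vertical axis, cells), stacked by which genes were detected: 2 or more of 4 granule genes, 3 or more of 5 Gata3-Il1rl1 genes, both, or neither. The Gata3-Il1rl1 cells make up 127 of 308 and 114 of 294 cells in Jarid2 KO and 34 to 43 cells in each other library.

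The Gata3-Il1rl1 cells held few transcripts of Mpo, Elane, Prtn3 and Ctsg, at 0 to 13.8, 0 to 24.7, 0 to 40.3 and 0 to 7.91 CPM in their sums. At most 2 cells per library also had 2 or more of these genes. Other listed granule genes varied. S100a9 stood at 47.5 and 66.4 CPM and S100a8 at 35.6 and 34.2 CPM in Jarid2 KO, and Plac8 had the levels given below. Hp, Ltf, Lcn2 and Chil3 were at 0 CPM in every library. They expressed Il7r, the interleukin-7 receptor, at 671 to 1149 CPM, Id2, an inhibitor of E proteins needed by innate lymphoid cells, at 671 to 1129 CPM, and Rora, a nuclear receptor of the same cells, at 494 to 866 CPM. Cd3e, a defining T cell receptor subunit, stood at 0 to 4.07 CPM, Cd3d at 0 to 12.2 CPM and Cd3g at 0 to 52.8 CPM, the last highest in the 2 Ezh2 KO libraries, whereas Trbc1, a T cell receptor constant gene, reached 105 to 362 CPM and Bcl11b, a T lineage transcription factor, 381 to 705 CPM. They were shallow, with a median of 3677 to 4779 UMIs per cell against 10752 to 14110 for the other gate cells. Their Jarid2 level was 156 and 141 CPM in Control, 138 and 158 CPM in Ezh2 KO and 206 and 196 CPM in Jarid2 KO. The set was not alike between genotypes. Stab2, one of the genes that chose it, was at 269 and 617 CPM in Control, 760.2 and 479 CPM in Ezh2 KO and 2422 and 2001 CPM in Jarid2 KO, whereas Gata3 was at 913 and 953 CPM in Control, 992 and 972 CPM in Ezh2 KO and 1135 and 1044 CPM in Jarid2 KO. Dntt, the lymphoid terminal transferase, was at 365 and 335 CPM in Control, 163 and 19.7 CPM in Ezh2 KO and 5.93 and 1.9 CPM in Jarid2 KO, Plac8 at 924 and 1322 CPM in Control, 512 and 59.1 CPM in Ezh2 KO and 121 and 118 CPM in Jarid2 KO and Ly6d, a lymphoid surface gene, at 183 and 376 CPM in Control, 36.6 and 0 CPM in Ezh2 KO and 3.95 and 1.9 CPM in Jarid2 KO. Igkc, the immunoglobulin kappa constant gene, was at 36919.7 CPM in the Control male library and at most 229.8 CPM in the other 5. Ighm, an immunoglobulin heavy chain gene, was at 9013.7 CPM in that library too. In the gate of the Control male library the cell richest in Igkc held 6868 Igkc UMIs. The Igkc level may therefore rest on very few cells, and it is not read as a trait of the Control set. All these levels are sums over 34 to 127 cells per library and were not tested. The gate therefore did not hold a single cell type, and it is called by its rule.

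These cells were not limited to the gate. Over all kept cells they made up 1.05% and 0.639% for the Control libraries, 1.1% and 0.916% for those of Ezh2 KO and 3.53% and 4.1% for those of Jarid2 KO. In the CD150-high neighbour (CD48 high, CD150 high, CD135 low) they were 3.36% and 0.747% for the Control libraries, 2.53% and 2.44% for those of Ezh2 KO and 22.6% and 26.9% for those of Jarid2 KO, and in the CD48-low neighbour (low in all 3) 4.25% and 0.67% for the Control libraries, 9.21% and 2.18% for those of Ezh2 KO and 8.55% and 4.64% for those of Jarid2 KO. In the CD135-high neighbour (CD48 high, CD150 low, CD135 high) no library passed 0.61%. All 3 CD135-low gates therefore held them, and the MPP3 gate held between 36.9% and 63% of those in a library. A few cells rich in immunoglobulin transcripts were present as well: 2 to 11 per library had 100 or more UMIs of Jchain, the joining chain of secreted antibodies.

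At the edges of the gate, cells just inside and just outside each limit were pooled over all 6 libraries and described with no test. The mix of genotypes in each band was not taken into account, so these are not within-library values. Mpo was at 365 CPM in the 184 cells just above the CD48 limit and 211 CPM in the 184 just below it. It was at 555 CPM just inside the CD150 limit and 361 CPM just outside. For CD135 the values were 316 CPM inside and 201 CPM outside. Gata3-Il1rl1 cells made up 0.266% of the band just inside the CD135 limit, 1 of 376 cells, and 0.35% of that just outside. They made up 23.9% just inside and 22.8% just outside the CD48 limit, and 12.7% and 19.4% at the CD150 limit. Mpo was higher just inside each of the 3 limits. Cebpa was higher inside at the CD150 limit only: it was at 26.6 CPM just inside the CD48 limit and 27.3 CPM outside, 40.3 and 31.8 CPM at the CD150 limit, and 33.6 and 37.2 CPM at the CD135 limit. For antibodies that the gate did not use, no difference between gates passed an adjusted p of 0.05. CD201, the endothelial protein C receptor carried by stem cells, had a library median of 32.6 UMIs averaged over the 6 libraries in the gate and 48.9 UMIs in the CD48-low neighbour, lower in 6 of 6 libraries (exact two-sided sign-flip permutation test p = 0.03125, the smallest it can give; adjusted p = 0.0505 over 42 comparisons). CD117, the c-Kit receptor, was lower than in the CD150-high neighbour in 6 of 6 libraries (199 against 315 UMIs, the same exact permutation p and adjusted p). CD201 (32.6 against 49.3 UMIs) and Sca1 (303 against 335 UMIs) were lower there in 6 of 6 libraries as well, with the same values of p. Against the CD150-high neighbour the summed count of all 6 antibodies was lower too (2073 against 2418 UMIs), and its part in these 3 differences was not tested. Against the CD48-low neighbour that sum was higher in the gate (1005 UMIs in the neighbour), CD48 being one of the 6. Beside the CD135-high neighbour, CD117 was higher in the gate in 4 of 6 libraries, CD201 in 1 and Sca1 in 2.

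The gate was next compared with its 3 neighbours, within libraries, to show what set it apart in genes that the gate did not use. The comparison was fitted with edgeR's quasi-likelihood test on summed counts, with the library as a term. Against the CD135-high neighbour 26.6% of 13191 tested genes passed an adjusted p of 0.05, against the CD150-high neighbour 38.9% and against the CD48-low neighbour 46.6%, so single calls were common. The neighbours differ from the gate in 1 antibody each, and genes that go with that antibody are part of the choice.

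Granule genes were higher in the gate than in each neighbour. Of 20 listed granule genes 16 were tested; 13 rose against the CD135-high neighbour, 13 against the CD150-high and 11 against the CD48-low, and none fell, with median log2 fold changes of 2.50, 1.80 and 1.83 beside medians over all tested genes of 0.00, 0.01 and -0.02. In the 2 Control libraries alone the medians were 1.29, 0.93 and 2.37, with 11, 9 and 11 of 15 genes higher and 1 lower, the last against the CD135-high neighbour. Elane averaged 504 ± 357 CPM (SD, n = 6) in the gate and 2.92 ± 2.81 CPM in the CD135-high neighbour (log2 fold change 6.98, SE 0.92, edgeR adjusted p = 4.30e-06). Its UMIs came from few cells, 10 to 57 per library, and the single richest cell gave up to 33.7% of them. Mpo averaged 573 ± 245 CPM, 104 ± 25.3 CPM, 159 ± 81.6 CPM and 68.8 ± 51.2 CPM in the gate, the CD135-high, the CD150-high and the CD48-low neighbour. Ctsg followed the same order of gates at the top (553 ± 231 CPM in the gate, 123 ± 71.1 CPM in the CD150-high neighbour). Prtn3 was less restricted, at 784 ± 237 CPM in the gate and 409 ± 68.3 CPM in the CD48-low neighbour (log2 fold change 0.96, SE 0.19, edgeR adjusted p = 3.29e-04). By cells thinned to 3000 UMIs, Prtn3 was found in 50.8% of the gate and 55.2% of the CD48-low neighbour, higher in the gate in 2 of 6 libraries (exact two-sided sign-flip permutation p = 0.219, adjusted p = 0.255). Against the CD135-high neighbour, at 49%, it was higher in 4 of 6 (exact permutation p = 0.688, adjusted p = 0.722).

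**Figure D2:**
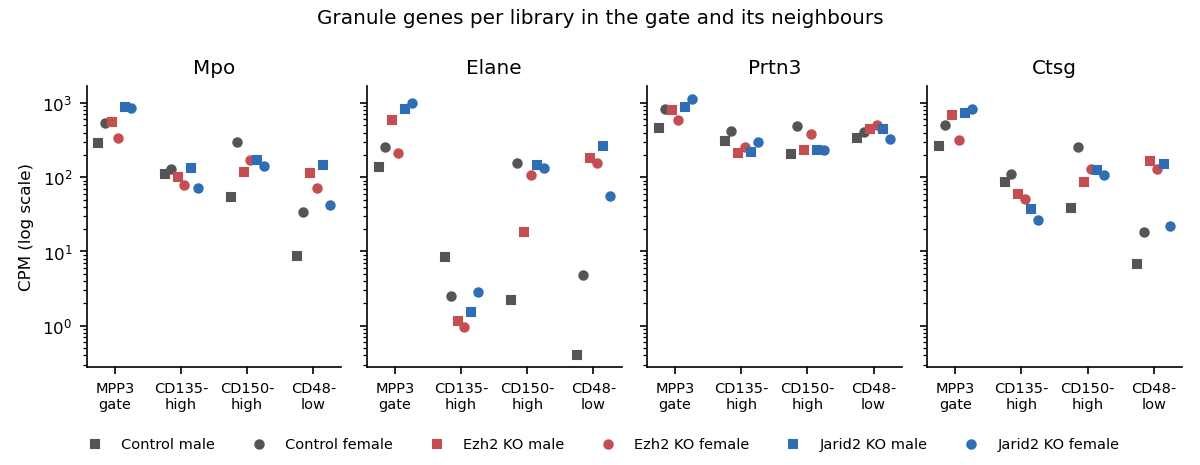
CPM (log axis) of Mpo, Elane, Prtn3 and Ctsg in each of the 6 libraries, in the MPP3 gate and its 3 neighbours; each point is 1 library, squares male and circles female. Elane spans 137 to 996 CPM in the gate and stays below 9 CPM in the CD135-high neighbour.

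The contrast with the CD150-high neighbour depended on how the antibodies were scaled. When the limits were set on centred log-ratio values of the 6 antibodies instead of raw counts, 3 of 16 tested granule genes were higher and 2 lower. Their median was 0.15, and 3146 of all 13341 tested genes were called. Elane turned over to -0.88 (edgeR adjusted p = 0.0147) from 2.30. The same scaling left 13 of 16 granule genes higher and 1 lower against the CD135-high neighbour, beside 2933 called among all 13341. Against the CD48-low neighbour 11 were higher and 1 lower, beside 5874 called. It kept 55.3 to 66.2% of a library's gate cells.

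Among other listed myeloid genes more rose than fell against each neighbour, though single genes differed. Of 20 listed myeloid regulators and receptors, 9 rose and 2 fell against the CD135-high neighbour, 17 rose and 1 fell against the CD150-high, and 12 rose and none fell against the CD48-low. Cebpa averaged 36.2 ± 8.84 CPM in the gate, 29.5 ± 7.04 CPM in the CD135-high neighbour (log2 fold change 0.29, SE 0.12, edgeR adjusted p = 0.0944), and 16.5 ± 8.57 CPM in the CD150-high (log2 fold change 1.15, SE 0.14, edgeR adjusted p = 1.78e-06). The Cebpa difference from the CD135-high neighbour did not pass, whereas that of Mpo did. Irf8, a transcription factor of monocytes and dendritic cells, fell against the CD135-high neighbour (35.4 ± 14.1 CPM against 55.6 ± 19.4 CPM; log2 fold change -0.68, SE 0.22, edgeR adjusted p = 0.0259). Csf3r, the granulocyte colony-stimulating factor receptor, stood at 77.5 ± 13.9 CPM and 77.8 ± 3.23 CPM in the same gates. Genes of the endoplasmic reticulum and the unfolded protein response, which fold secreted proteins, were higher too: 16 of 18 rose against the CD135-high neighbour, among them Hspa5, the chaperone BiP (0.43, SE 0.08), and Calr, calreticulin, at 634 ± 74.3 CPM against 385 ± 41.3 CPM. Genes of antibody-secreting cells, which are rich in endoplasmic reticulum, moved with them: Igkc averaged 6912 ± 6476 CPM in the gate and 99.9 ± 168 CPM in this neighbour (log2 fold change 6.47, SE 0.80, edgeR adjusted p = 1.79e-06), and of 11 tested B-lineage genes outside the exclusion list 6 rose, Iglc2, Iglc3 and Mzb1 among them, and 2 fell. The gate held 2 to 12 cells per library with 10 or more Jchain UMIs. When such cells were left out of every gate, a setting chosen after the values were seen, 13 of 18 endoplasmic reticulum genes rose and their median went from 0.43 to 0.27 on the log2 scale.

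Genes of other branches separated the neighbours. Dntt, the terminal transferase of lymphoid progenitors, averaged 46.3 ± 21.4 CPM in the gate and 504 ± 123 CPM in the CD135-high neighbour (log2 fold change -3.49, SE 0.13, edgeR adjusted p = 2.77e-14); 10 of 20 lymphoid priming genes fell there and 4 rose. Satb1, a chromatin organiser of lymphoid progenitors, showed 136 ± 18.8 CPM and 350 ± 35 CPM. Against the CD150-high neighbour 14 of 18 erythroid and 12 of 15 tested megakaryocyte genes fell and none rose. Car1, carbonic anhydrase of erythroid cells, was at 28.4 ± 30.2 CPM against 869 ± 520.4 CPM, and Pf4, platelet factor 4, at 21.4 ± 33.8 CPM against 248 ± 91.4 CPM; in the Control male library 1 cell gave 92.3% of the gate's Pf4 UMIs. Against the CD48-low neighbour 18 of 20 stem cell genes fell and none rose, with Procr, which encodes CD201, at 12 ± 4.85 CPM against 44.7 ± 13.5 CPM and Hlf, a stem cell transcription factor, at 343 ± 49.5 CPM against 816 ± 36.3 CPM. Division genes moved in opposite directions by neighbour: all 20 mitosis genes rose against the CD48-low neighbour and all 20 fell against the CD150-high, with Top2a, a topoisomerase of dividing cells, at 269 ± 26.6 CPM, 89.4 ± 26.5 CPM and 404 ± 26.9 CPM in that order of gates. Basophil and mast genes were higher in the gate than in the CD135-high neighbour in 6 of 7 tested, and 1 was lower: Cpa3, mast cell carboxypeptidase, was at 94 ± 39.9 CPM against 2.8 ± 1.05 CPM there.

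Innate lymphoid and T genes rose beside the granule genes (14, 12 and 13 of 15 tested, in the same order of neighbours, with 2 lower against the CD48-low neighbour). Without the Gata3-Il1rl1 cells 11, 9 and 10 of them passed upward. The list includes Gata3, Il1rl1, Icos, Stab2 and Skap1, which chose those cells, so these counts are partly fixed by that choice. In that setting the calls over all genes numbered 3556, 4705 and 6356, and Mpo kept log2 fold changes of 2.47, 1.90 and 3.28. The stricter gate (CD48 above the 75th, CD150 and CD135 at or below the 25th percentile) held only 11 to 21 cells per library.

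Loss of each PRC2 component was then compared with Control inside the gate, in a fit with genotype and sex. The targeted genes were read first. Ezh2 stood at 203 and 210.1 CPM in Control, 132 and 127 CPM in Ezh2 KO and 201 and 201 CPM in Jarid2 KO, so both Ezh2 KO libraries lay below the other 4 (log2 fold change -0.67, SE 0.09, edgeR adjusted p = 0.028). Without the Ezh2 KO female library the adjusted p was 0.0975. Jarid2 stood at 145 and 129 CPM in Control, 132 and 149 CPM in Ezh2 KO and 199 and 169 CPM in Jarid2 KO, and the 2 Jarid2 KO libraries lay above the others (log2 fold change 0.47, SE 0.11, edgeR adjusted p = 0.078). Which exons were deleted is not stated, and 3' tags outside the deleted part still count, so Jarid2 reads give no check of the Jarid2 KO label.

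In Ezh2 KO 21 of 12370 genes passed, 0.17% of those tested, 19 higher and 2 lower. The count was 335 and 97 without the Control male and female, and 67 and 57 without the Ezh2 KO male and female. Both knockouts were set against the same 2 Control libraries. Hmga2, a chromatin protein of fetal blood stem cells, was at 45.3 and 51.7 CPM in Control, 147 and 145 CPM in Ezh2 KO and 57 and 83.7 CPM in Jarid2 KO (log2 fold change 1.60, SE 0.14, edgeR adjusted p = 0.00394). Its Ezh2 KO values also lay above both Jarid2 KO values. Pbx3, a homeodomain partner of Hox proteins, was at 49.1 and 46.3 CPM in Control, 102 and 116 CPM in Ezh2 KO and 31.3 and 29.9 CPM in Jarid2 KO, with Ezh2 KO above Control (log2 fold change 1.20, SE 0.10, edgeR adjusted p = 0.00394). Plag1, a zinc-finger transcription factor of growth pathways, was at 6.2 and 10.5 CPM in Control, 24.1 and 28.4 CPM in Ezh2 KO and 7.35 and 12.8 CPM in Jarid2 KO (log2 fold change 1.65, SE 0.21, edgeR adjusted p = 0.0214). DESeq2 gave Plag1 an adjusted p of 0.0618, and the fit without sex 0.13.

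Bmpr1a, a receptor for bone morphogenetic proteins, was at 4.05 and 7.29 CPM in Control, 17.3 and 23 CPM in Ezh2 KO and 6.74 and 9.26 CPM in Jarid2 KO (log2 fold change 1.82, SE 0.22, edgeR adjusted p = 0.0185), but passed neither in DESeq2 (adjusted p = 0.0871) nor without sex (adjusted p = 0.0956). Ppm1e, a protein phosphatase, was at 12.6 and 10.8 CPM in Control, 44 and 35.5 CPM in Ezh2 KO and 12.3 and 10.2 CPM in Jarid2 KO (log2 fold change 1.75, SE 0.14, edgeR adjusted p = 0.00394). Bex4, a small adaptor protein encoded on the X chromosome, was at 7.63 and 7.42 CPM in Control, 23.6 and 30.5 CPM in Ezh2 KO and 6.13 and 7.77 CPM in Jarid2 KO (log2 fold change 1.86, SE 0.19, edgeR adjusted p = 0.00942). Non-overlap with Control was a condition for naming these 3 genes, and also Hmga2 and Plag1, so it is not a result. The Ezh2 KO values of Bmpr1a also lay above both Jarid2 KO values. For Ppm1e and Bex4, non-overlap with Jarid2 KO was a naming condition too. Il1rapl2, Slc16a11 and Mpped2 had log2 fold changes of 2.60, 1.79 and 1.42; Ifi27l2a, an interferon-induced gene, of 1.47; and Hbb-bt, a beta-globin, of 1.38. For Hbb-bt the adjusted p was 0.0309, and 0.269 with the gate cut within each library. Besides Ezh2 itself only Apoe, apolipoprotein E, fell, at 134 and 114 CPM in Control, 64.8 and 52.2 CPM in Ezh2 KO and 82.7 and 75.6 CPM in Jarid2 KO (log2 fold change -1.08, SE 0.10, edgeR adjusted p = 0.00411). With the centred log-ratio gate its adjusted p was 0.16. In Jarid2 KO against Control, Apoe was called lower too (-0.61, edgeR adjusted p = 0.0192) and Il1rapl2 higher too (1.57, edgeR adjusted p = 0.0436).

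**Figure D3:**
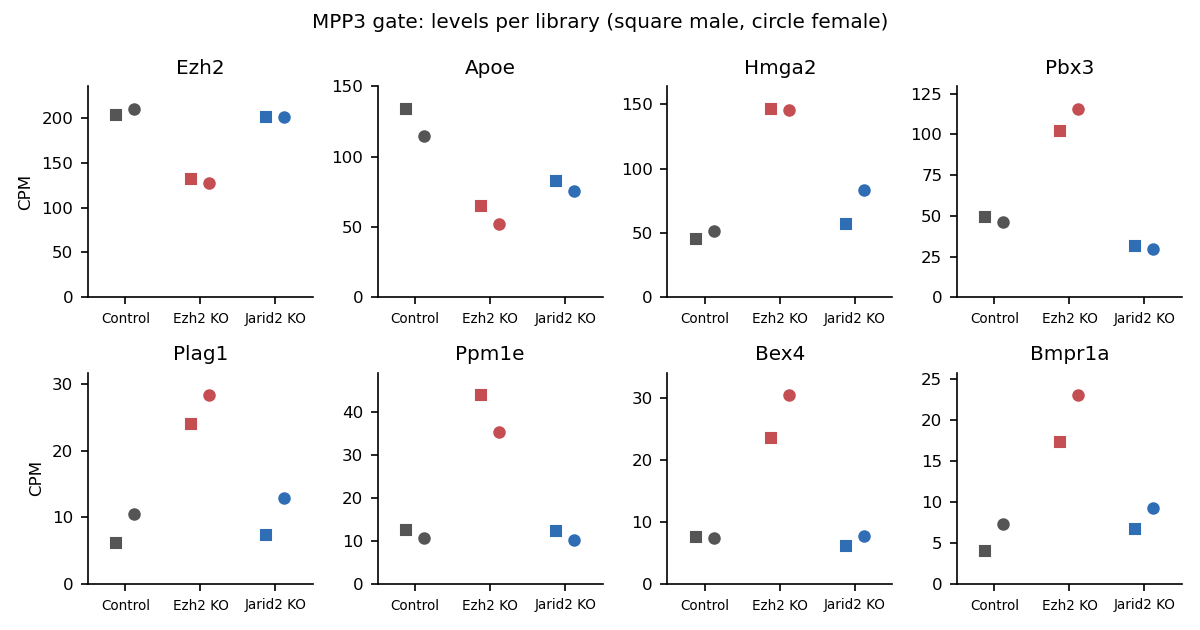
CPM per library of Ezh2, Apoe and 6 genes that were higher in Ezh2 KO, in the MPP3 gate; each point is 1 library, squares male and circles female, and each panel has its own axis from 0. In Hmga2, for example, the Ezh2 KO libraries stand at 145 and 147 CPM against 45 to 84 CPM in the other 4.

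The promoters of Hmga2 and Bmpr1a are shown because PRC2 is known to bind regions rich in CpG and the 2 genes, which moved together, differ in that feature. Each sequence is the 250 bases before the annotated start, 5′ to 3′ on the gene's strand, from RefSeq on GRCm38.p6, with CpG dinucleotides in capitals. Hmga2 lies on the minus strand at chr10:120476470-120476719 and holds 8 CpG. Bmpr1a lies on the minus strand at chr14:34502547-34502796 and holds 36. Among 32851 promoter entries of the same length 92.1% held at least 1 CG and the median count was 6. The counts describe the sequences; PRC2 binding in these cells was not measured.
Hmga2: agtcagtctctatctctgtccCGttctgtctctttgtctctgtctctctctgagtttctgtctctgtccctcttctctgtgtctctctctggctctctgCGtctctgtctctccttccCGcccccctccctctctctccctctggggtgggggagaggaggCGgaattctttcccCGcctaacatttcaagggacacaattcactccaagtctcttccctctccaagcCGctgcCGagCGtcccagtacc
Bmpr1a: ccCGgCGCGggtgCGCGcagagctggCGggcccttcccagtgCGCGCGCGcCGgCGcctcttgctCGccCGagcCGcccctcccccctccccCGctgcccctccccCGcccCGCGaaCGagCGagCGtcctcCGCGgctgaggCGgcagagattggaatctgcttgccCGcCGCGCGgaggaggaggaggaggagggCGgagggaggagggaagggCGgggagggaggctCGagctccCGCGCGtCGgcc

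In Ezh2 KO none of 16 tested granule genes was called higher or lower, with a median log2 fold change of 0.37, and the Ezh2 KO values of Mpo and Elane lay on both sides of the Control female. The list depended on single libraries: 7 rose without the Ezh2 KO female, 6 without the Control female and none without the Ezh2 KO male, and the median ran from -0.41 to 1.21 with 1 library left out. Without the filter on low counts 6 rose. By list, 1 of 5 tested fetal program genes (Hmga2), 1 of 12 Hox and Meis genes (Pbx3), 1 of 18 interferon genes (Ifi27l2a) and 1 of 12 erythroid genes (Hbb-bt) rose. The 1 call among 10 basophil and mast genes, Cma1, is given as levels and not counted, because it entered the test only through Ezh2 KO. Cma1, a mast cell chymase, was at 0 and 0.26 CPM in Control, 9.47 and 11.6 CPM in Ezh2 KO and 0 and 0 CPM in Jarid2 KO, and 2 and 2 Ezh2 KO cells held it. None of 20 myeloid regulators, 18 endoplasmic reticulum genes, 20 DNA replication genes or 20 mitosis genes passed either. Of the 24 Polycomb subunits only Ezh2 passed; Ezh1, Eed and Suz12 did not.

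In Jarid2 KO 225 of 12370 genes passed against Control, 1.82% of those tested, 161 higher and 64 lower. The 4 largest fitted rises were immunoglobulin genes, Ighg2b, Igkv14-126, Igkv1-117 and Ighv11-2. Igkv14-126 was at 0.238 and 0 CPM in Control, 8.31 and 0.591 CPM in Ezh2 KO and 26 and 47.5 CPM in Jarid2 KO, from 3 and 3 Jarid2 KO cells. All 4 were too low to be tested once cells with 10 or more Jchain UMIs were left out, so no fold is given for them. Among 12 tested erythroid genes Car1 rose, at 5.72 and 3.77 CPM in Control, 29.4 and 1.58 CPM in Ezh2 KO and 70.2 and 59.8 CPM in Jarid2 KO (log2 fold change 3.84, SE 0.63, edgeR adjusted p = 0.0206). Ank1, erythrocyte ankyrin, was at 0.238 and 0.13 CPM in Control, 0.997 and 0.591 CPM in Ezh2 KO and 3.68 and 5.98 CPM in Jarid2 KO. Its call is not counted, because it entered the test only through Jarid2 KO. Without the Gata3-Il1rl1 cells Car1 had a log2 fold change of 4.06 and did not pass (edgeR adjusted p = 0.144). Some large changes kept about their size without those cells, among them B3galt1 (-2.53, and -2.31 without), Elane (2.23 and 2.44) and Ly6c2 (2.17 and 2.38). None of these passed there (edgeR adjusted p = 0.144, 0.145 and 0.144). Several other large rises were in genes of the Gata3-Il1rl1 cells, and Gata3, Il1rl1, Icos, Stab2 and Skap1 were used to choose those cells. Stab2 was at 11.9 and 12.5 CPM in Control, 31.1 and 17.3 CPM in Ezh2 KO and 376 and 316 CPM in Jarid2 KO (log2 fold change 4.82, SE 0.18, edgeR adjusted p = 4.97e-06), and Icos at 13.8 and 8.07 CPM in Control, 26.1 and 12 CPM in Ezh2 KO and 132 and 110 CPM in Jarid2 KO (log2 fold change 3.55, SE 0.20, edgeR adjusted p = 7.37e-05). Il1rl1 was at 29.3 and 13.5 CPM in Control, 30.7 and 18.5 CPM in Ezh2 KO and 150.2 and 86.1 CPM in Jarid2 KO (log2 fold change 2.54, SE 0.12, edgeR adjusted p = 3.11e-05) and Gata3 at 56.8 and 32.7 CPM in Control, 54 and 51 CPM in Ezh2 KO and 189 and 179.9 CPM in Jarid2 KO (log2 fold change 2.14, SE 0.16, edgeR adjusted p = 4.56e-04). For Stab2 and Icos, non-overlap of Jarid2 KO with Control and with Ezh2 KO was a condition for naming, so it is not a result. For Il1rl1 and Gata3 both Jarid2 KO libraries lay above the other 4. Of 15 tested innate lymphoid and T genes 10 rose and none fell, among them Il2ra, Thy1 and Zbtb16. Of 17 lymphoid priming genes 4 rose, Il7r, Ccr9, a thymus homing receptor, and the leukocyte surface genes Cd52 and Cd53. Stxbp6 and Hs3st1 had log2 fold changes of 3.15 and 3.50.

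When the Gata3-Il1rl1 cells were left out, 1 gene passed against Control, Ighg2b, an immunoglobulin heavy chain. Its 1204 UMIs in the male and 1180 in the female Jarid2 KO library came almost wholly from 1 cell in each, which held 1179 UMIs in both. With at most 2 UMIs in any other library, it entered the test only through Jarid2 KO, and no fold is given. Of the 225 genes 207 were tested again, 178 had a smaller change, and the median size went from 0.99 to 0.52 on the log2 scale. Among those that were higher the median went from 1.39 to 0.42, and among those that were lower from -0.69 to -0.56. Each library mattered to the count of 225: it was 93 without the Jarid2 KO male and 51 without the female, 675 and 339 without the Control male and female, and 457 and 441 without the Ezh2 KO male and female, which share the estimate of spread.

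**Figure D4:**
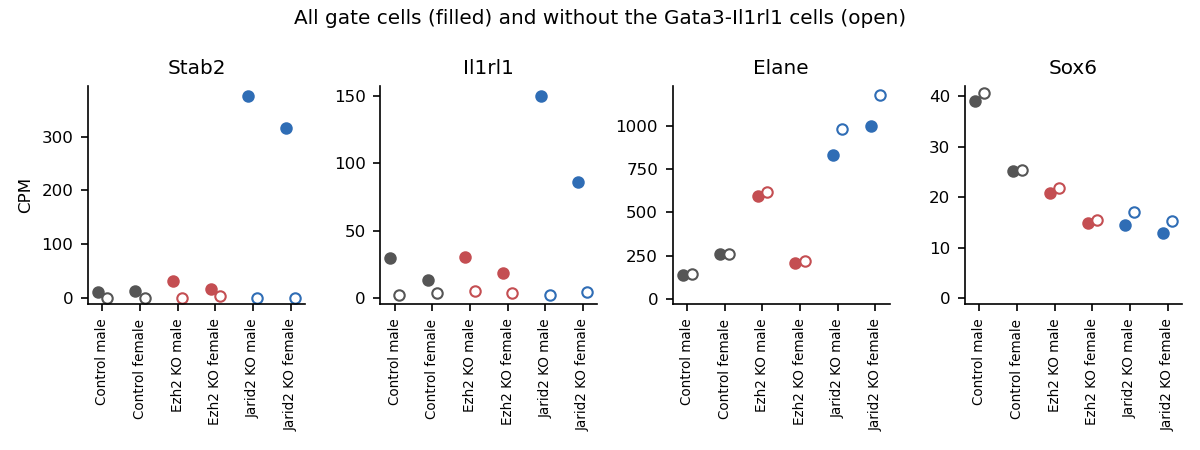
CPM per library of Stab2, Il1rl1, Elane and Sox6 in all gate cells (filled) and without the Gata3-Il1rl1 cells (open); each point is 1 library and each panel has its own linear axis. Stab2 falls from 376 and 316 CPM to near 0 in Jarid2 KO. Stab2 and Il1rl1 were used to choose the cells left out, so their fall is fixed by that choice. For Elane both Jarid2 KO libraries stay highest and for Sox6 both Control libraries stay highest.

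Of 16 tested granule genes 2 rose in Jarid2 KO, Elane and Ly6c2, and Lyz2, lysozyme, fell. Elane was at 137 and 257 CPM in Control, 592 and 209 CPM in Ezh2 KO and 829.9 and 996 CPM in Jarid2 KO, with both Jarid2 KO libraries highest and the Ezh2 KO male next (log2 fold change 2.23, SE 0.44, edgeR adjusted p = 0.0418). Ly6c2, a surface antigen of monocytic and granulocytic cells, was at 23.8 and 26.7 CPM in Control, 60.6 and 18.1 CPM in Ezh2 KO and 120.4 and 110 CPM in Jarid2 KO (log2 fold change 2.17, SE 0.34, edgeR adjusted p = 0.018). Mpo, with the levels given above, had log2 fold change 1.10, SE 0.29, edgeR adjusted p = 0.115, and Ctsg, at 259.7 and 504 CPM in Control, 683 and 319 CPM in Ezh2 KO and 724 and 830.4 CPM in Jarid2 KO, had log2 fold change 1.06, SE 0.36, edgeR adjusted p = 0.213. Of Mpo, Elane, Prtn3 and Ctsg only Elane passed. None of the granule genes passed with DESeq2, with B-lineage cells kept, with the stricter gate or without the Gata3-Il1rl1 cells. In that last setting Elane had a log2 fold change of 2.44 with an edgeR adjusted p of 0.145. The median over 16 granule genes was 1.23 beside 0.00 over all tested genes. That median was 0.56 with the centred log-ratio gate and 0.75 with the gate cut within each library, and 1 granule gene rose in each. Lyz2 had log2 fold change -0.57, SE 0.09, edgeR adjusted p = 0.0206. Leaving out 1 library moved the number of higher granule genes from 0 (without the Jarid2 KO female) to 12 (without the Control female or either Ezh2 KO library), with 8 without the Control male, and the median from 0.85 to 1.88. As a share of all gate cells, those with 2 or more of Mpo, Elane, Prtn3 and Ctsg were 49.1% and 67.7% for the Control libraries, 50.7% and 44.4% for those of Ezh2 KO and 39% and 36.1% for those of Jarid2 KO, lowest in Jarid2 KO, whose gate cells were also the shallowest. After thinning every cell to 3000 UMIs the shares were 19.1% and 39.2% for the Control libraries, 22.9% and 19.7% for those of Ezh2 KO and 21.7% and 20.3% for those of Jarid2 KO, so Jarid2 KO was no longer lowest and the Control female alone stood apart. Among cells other than the Gata3-Il1rl1 cells, unthinned, they were 55.6% and 71.9% for the Control libraries, 56.5% and 48.6% for those of Ezh2 KO and 65.2% and 57.8% for those of Jarid2 KO, and the genotypes overlapped. Without the filter on low counts 12 of 20 granule genes rose, and 6 of 16 rose with every cell that held any B-lineage gene of the rule left out.

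Among 64 genes that were lower in Jarid2 KO, Sox6, a transcription factor of erythroid and other progenitors, was at 39.1 and 25.1 CPM in Control, 20.9 and 15 CPM in Ezh2 KO and 14.4 and 12.8 CPM in Jarid2 KO (log2 fold change -1.17, SE 0.18, edgeR adjusted p = 0.015). Both Ezh2 KO libraries lay below Control too, whereas non-overlap of Jarid2 KO with Control was a condition for naming Sox6. Without the Gata3-Il1rl1 cells its log2 fold change was -0.95, with an edgeR adjusted p of 0.145. B3galt1, a galactosyltransferase, was at 15.3 and 12.4 CPM in Control, 14.3 and 23 CPM in Ezh2 KO and 1.84 and 2.69 CPM in Jarid2 KO (log2 fold change -2.53, SE 0.38, edgeR adjusted p = 0.014), detected in 3 and 6 Jarid2 KO cells against 30 to 67 cells elsewhere. Vldlr, the very low density lipoprotein receptor, was at 34.1 and 59.4 CPM in Control, 37.6 and 50.4 CPM in Ezh2 KO and 16.5 and 30.2 CPM in Jarid2 KO (log2 fold change -0.96, SE 0.16, edgeR adjusted p = 0.02). Angpt1, a niche ligand, and Ifitm1 fell among 19 tested stem cell genes and Ly6a, which encodes Sca1, rose (1.67, edgeR adjusted p = 0.00755). Ly6a was abundant in the Gata3-Il1rl1 cells, at 322 to 872 CPM against 31.1 to 72.5 CPM in the other gate cells, and without them its log2 fold change was 0.52 (edgeR adjusted p = 0.56). In that setting none of the 19 passed. Csf3r also fell, at 84.7 and 93.6 CPM in Control, 78.3 and 87.1 CPM in Ezh2 KO and 60.1 and 61.3 CPM in Jarid2 KO (log2 fold change -0.51, SE 0.10, edgeR adjusted p = 0.033). Pbx3, which rose in Ezh2 KO, fell in Jarid2 KO (log2 fold change -0.60, SE 0.12, edgeR adjusted p = 0.0468). None of 20 DNA replication, 20 mitosis or 24 Polycomb subunit genes passed.

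Set against each other, Jarid2 KO and Ezh2 KO differed in 162 genes, 1.31% of 12370, with 85 higher and 77 lower in Jarid2 KO. Stab2, Icos, Gata3 and Il1rl1 were higher in Jarid2 KO, with Stab2 at 3.88 on the log2 scale, and 6 of 15 innate lymphoid and T genes rose. Of 18 interferon genes 3 were lower (Ifi27l2a, Ifi44 and Ifitm3), and of 19 stem cell genes 4, among them Ctla2a, Ifitm1 and Ifitm3. Pbx3 (-1.79), Ppm1e (-1.79), Bex4 (-1.91), Hmga2 (-1.03) and Hoxa10 (-1.52), a posterior homeobox gene, were lower. Without the Gata3-Il1rl1 cells 20 genes differed, 19 of them among the 162, and Pbx3 stood at -1.71 (adjusted p = 0.00135). The Control libraries do not enter this contrast, but they share its estimate of spread: without the Control male 744 genes differed and without the Control female 654. Without the Jarid2 KO male the count was 78 and without the female 51.

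Whether a knockout effect in the gate differed from that in its CD135-high neighbour was tested as an interaction in 14489 genes. For Jarid2 359 passed (2.48%), 242 of them with a positive interaction, and for Ezh2 7 passed (0.0483%). The Jarid2 count was 151 without the Control female and 189 without the Jarid2 KO female, and the Ezh2 count 12 to 24 when any 1 library was left out. Granule genes stood out by their counts: 10 of 17 tested passed for Jarid2, all upward, with a median of 2.07 beside -0.01 over all tested genes. Elane had an interaction of 3.79 (SE 0.53, edgeR adjusted p = 4.12e-04), Ctsg 2.70 (adjusted p = 4.25e-06) and Mpo 1.41 (adjusted p = 0.00106). In the CD135-high neighbour itself Ctsg was at 84.9 and 109 CPM in Control, 59.4 and 51.1 CPM in Ezh2 KO and 37.3 and 26.8 CPM in Jarid2 KO, with the 2 Jarid2 KO libraries lowest, whereas in the gate they were highest. Cebpa did not pass (0.06, adjusted p = 0.941).

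**Figure D5:**
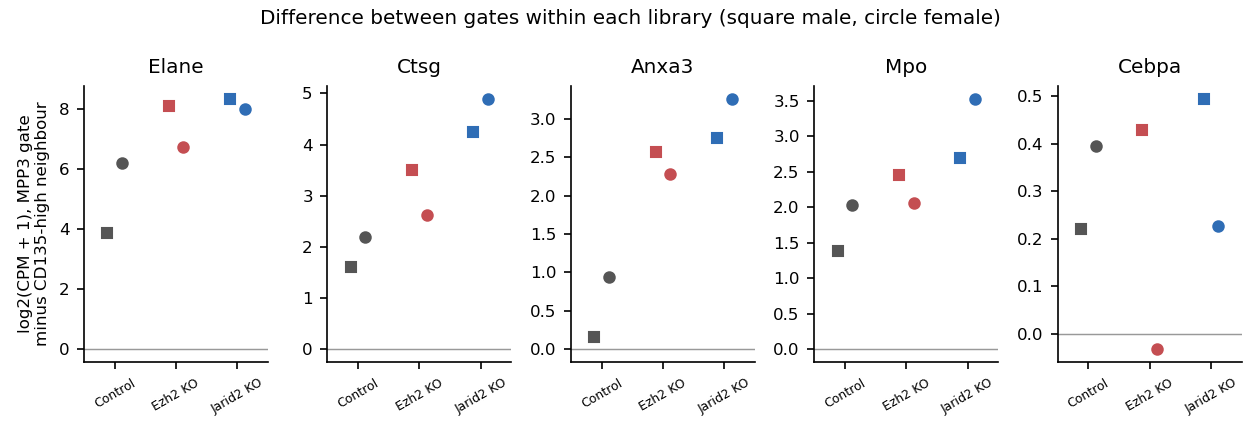
Difference in log2(CPM + 1) between the MPP3 gate and the CD135-high neighbour, within each library, for Elane, Ctsg, Anxa3, Mpo and Cebpa; each point is 1 library, squares male and circles female, with a line at 0. For Ctsg, Anxa3 and Mpo both Jarid2 KO libraries lie above both Control libraries, and for Cebpa they overlap.

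These 10 granule calls numbered 10 without the Gata3-Il1rl1 cells as well, 3 with DESeq2 and 3 with the centred log-ratio gate. With 1 library left out there were 6 (without the Control male), 7 (without the Jarid2 KO male), 8 (without the Control female) and up to 12 (without the Ezh2 KO female). For Elane the adjusted p was 0.111 with DESeq2 and 0.0851 with the centred log-ratio gate, so its Jarid2 interaction passed in neither. Of 18 endoplasmic reticulum genes 7 passed upward, among them Hspa5 (0.58, adjusted p = 0.00909). In the gate Igkc was at 6743 and 2172 CPM in Control, 2682 and 2409 CPM in Ezh2 KO and 8446 and 19023 CPM in Jarid2 KO, with both Jarid2 KO libraries highest; against Control it did not pass (1.76, edgeR adjusted p = 0.146). Gate cells with 100 or more Jchain UMIs numbered 6 and 3 for the Control libraries, 4 and 2 for those of Ezh2 KO and 7 and 11 for those of Jarid2 KO. Without the cells of 10 or more Jchain UMIs 6 of 18 endoplasmic reticulum genes passed upward, Hspa5 among them, with a median of 0.27 in place of 0.39. Of 20 stem cell genes 7 passed downward, among them Mecom, Meis1, Mycn, Gata2, Angpt1 and Ctla2a, and Ly6a passed upward; without the Gata3-Il1rl1 cells the downward calls were Angpt1 and Ctla2a. Gata3 (1.89) passed too; it was used to choose those cells, so its value without them is fixed by that choice and is not given. For Ezh2 the 7 genes included Elane (3.67, adjusted p = 0.00798) and Anxa3, annexin A3 of granulocytes (2.02, adjusted p = 0.00466). In the CD135-high neighbour Elane was at 8.45 and 2.5 CPM in Control, 1.18 and 0.973 CPM in Ezh2 KO and 1.55 and 2.89 CPM in Jarid2 KO, so few Elane UMIs stood behind its interactions. The Ezh2 interaction of Elane did not pass with DESeq2 (3.02, adjusted p = 1), with the centred log-ratio gate (0.71, adjusted p = 1) or without the Ezh2 KO male (2.77, edgeR adjusted p = 0.317). Elane was the 1 call among 17 granule genes for Ezh2; that count ran from 0 without the Ezh2 KO male to 7 without the Ezh2 KO female, and the median from 0.31 to 1.78.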

How the data were processed

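The 6 baseline libraries were filtered gene-by-barcode and antibody-by-barcode matrices of raw counts deposited by the authors; the submitters' processing notes name Cell Ranger 3.1.0, Seurat 3.0, Partek and build mm10. The members and lists were chosen with earlier results of these data known. Cells were filtered and gated as described above, counts were summed per library and gate, and 12370 to 14489 genes were tested with edgeR 4.0.16 (quasi-likelihood, TMM, filterByExpr, terms for genotype and sex, or library for gate comparisons; 2 residual degrees of freedom within the gate; Benjamini-Hochberg, adjusted p under 0.05). The procedure was tested on simulated data. Alternatives were DESeq2 1.42.0, other filters, scalings and gates, predicted doublets removed, and each library left out. Doublets were otherwise kept. Each SE beside an edgeR fold change is the absolute log2 fold change divided by the square root of the quasi-likelihood F statistic. It was not estimated separately. Genes were named by rule: the targeted and marker genes, up to 10 called genes per direction with the largest fold change, a mean of at least 10 CPM and groups that did not overlap, and called or abundant list members. Some genes meeting the rule are not reported here. Python 3.11.15 and scipy 1.17.1 were used. The series' transplant and CUT&Tag samples were not used here.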

Additional observations from a re-analysis of the deposited data

Results flagged for a closer look

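The following genes were singled out because the test of the difference itself passed: the knockout effect in the MPP3 gate differed from that in the CD135-high neighbour in the interaction term of the edgeR fit (adjusted p under 0.05). Values are interactions on the log2 scale, knockout effect in the gate minus that in the neighbour, so a negative value is a lower effect and not a smaller one, and both effects use the same Control libraries. For Jarid2 KO the interaction was positive for Elane (3.79), Car1 (3.78), Icos (3.58), Stxbp6 (3.26), Slpi (3.19), Cxcr6 (2.93), Cysltr1 (2.93) and Ms4a3 (2.83). It was negative for Nxph1 (-1.93), Sox6 (-1.25), Vldlr (-1.22), Lypd6b (-1.20), Hectd2 (-1.16), Gulp1 (-1.07), Stxbp4 (-1.06), Crispld1 (-1.06), Zfp820 (-1.04) and Fads2 (-1.01). For Ezh2 KO it was positive for Elane (3.67) and Anxa3 (2.02), and negative for Trbc2 (-2.18), Mzb1 (-1.97) and Prkca (-0.59). Ighg2b also passed for Jarid2 KO, with a fitted value of 10.46, but it entered the test only through that genotype and 1 cell gave 97.9% and 99.9% of its UMIs in the male and female library, so the value is not a measure of size. The Elane interaction for Jarid2 KO did not pass with DESeq2 or with the centred log-ratio gate. The Elane interaction for Ezh2 KO was 2.77 without the Ezh2 KO male (edgeR adjusted p = 0.317), 3.02 with DESeq2 (adjusted p = 1) and 0.71 with the centred log-ratio gate (edgeR adjusted p = 1). Without the Gata3-Il1rl1 cells, Stxbp6 had 0.23 (edgeR adjusted p = 0.935), Cxcr6 0.71 (edgeR adjusted p = 0.816) and Cysltr1 -1.05 (edgeR adjusted p = 0.826) for Jarid2 KO. Icos was used to choose those cells, so its value without them is fixed by the choice. Of the negative values for Jarid2 KO, 6 no longer passed without those cells, with the edgeR adjusted p in parentheses: Sox6 -1.05 (0.0791), Lypd6b -1.06 (0.13), Hectd2 -0.92 (0.175), Crispld1 -0.85 (0.0519), Zfp820 -0.86 (0.127) and Fads2 -0.84 (0.152). For Ezh2 KO, Prkca had -0.50 (edgeR adjusted p = 0.0852) and Trbc2 -2.11 (edgeR adjusted p = 0.218).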

How the results depend on the processing

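Counts of genes called by edgeR depended on the settings, and the cause was not tested. Jarid2 KO against Control gave 225 genes; it gave 122 with DESeq2, 867 without the filter on low counts, 88 with the centred log-ratio gate, 121 with the gate cut within each library, 42 with B-lineage cells kept, 1 with the Gata3-Il1rl1 cells left out (an alternative chosen after seeing the data) and 51 to 675 with 1 library left out. With the stricter gate, which tested 4789 genes, edgeR called 0 and 230 had an unadjusted p under 0.05. Ezh2 KO against Control gave 21 genes; it gave 377 without the filter, 1 with the stricter gate, 32 with the gate cut within each library, 54 with B-lineage cells kept, 42 with cells holding any B-lineage gene left out and 40 with cells of 10 or more Jchain UMIs left out (both chosen after seeing the data) and 31 to 335 with 1 library left out. Jarid2 KO against Ezh2 KO gave 162; it gave 89 with DESeq2, 774 without the filter, 106 with the centred log-ratio gate, 1 with the stricter gate, 265 with the gate cut within each library, 20 with the Gata3-Il1rl1 cells left out and 51 to 744 with 1 library left out. Against the CD135-high, CD150-high and CD48-low neighbours the stricter gate gave 1323, 1003 and 2111 genes and the 2 Control libraries alone 1555, 2019 and 3741; the centred log-ratio gate gave 3146 against the CD150-high neighbour, and leaving out 1 library gave 2711 to 3397, 4237 to 4788 and 5327 to 5870. The share of calls that were higher in the gate than in the CD150-high neighbour was 53.0%, 47.8% with DESeq2 and 47.5% with the RLE normalization, and 40.9% without the Jarid2 KO female library. The Jarid2 interaction gave 359 genes; it gave 154 with DESeq2, 650 without the filter, 81 with the centred log-ratio gate, 111 with the Gata3-Il1rl1 cells left out and 151 to 523 with 1 library left out. The Ezh2 interaction gave 7; it gave 1 with DESeq2, 78 without the filter, 1 with the centred log-ratio gate, 13 with cells of 10 or more Jchain UMIs left out and 12 to 24 with 1 library left out. The share of kept cells in the gate, as a mean over libraries, was 4.72%, and 0.191% for the stricter gate and 7.71% with B-lineage cells kept.

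The replicate number is the sex of the library. Deviations of same-sex libraries from their genotype means correlated at 0.02 (Control and Ezh2 KO), 0.18 (Control and Jarid2 KO) and 0.08 (Ezh2 KO and Jarid2 KO) over 8727 genes, so the libraries share a sex and are not shown to be pairs. Without the replicate block the counts were 156 and 13 for Jarid2 KO and Ezh2 KO set against Control, and 79 between the knockouts.

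Some named genes changed sign, most of them not called in either setting; log2 values under the alternative are given. With the centred log-ratio gate these were Jarid2 (-0.017) for the Ezh2 interaction, Mpo (-0.12), Jarid2 (-0.080) for Ezh2 KO against Control, Cebpa (-0.067) for the Jarid2 interaction, Ezh2 (0.044) for Jarid2 KO against Control, Cebpa (-0.19) for Jarid2 KO against Ezh2 KO, Elane (-0.88), Ly6c2 (-0.27), Anxa3 (-0.15), Trbc1 (-0.10), Ighm (-0.019), Iglc1 (-0.016) for the gate against the CD150-high neighbour. With the gate cut within each library these were Jarid2 (-0.14) for Ezh2 KO against Control, Ezh2 (0.038) for Jarid2 KO against Control, Cebpa (-0.47) for Jarid2 KO against Ezh2 KO. With the stricter gate these were Cebpa (1.31), Jarid2 (-0.50) for Ezh2 KO against Control, Ezh2 (0.27), Cebpa (1.20) for Jarid2 KO against Control, Cebpa (-0.11) for Jarid2 KO against Ezh2 KO. With B-lineage cells kept these were Mpo (-0.37), Jarid2 (-0.035) for Ezh2 KO against Control. With the Gata3-Il1rl1 cells left out these were Ezh2 (0.056), Cysltr1 (-1.05) for the Jarid2 interaction, Ezh2 (0.16) for Jarid2 KO against Control, Stxbp6 (-0.11) for Jarid2 KO against Ezh2 KO. With cells with any B-lineage gene left out these were Mpo (-0.25) for Ezh2 KO against Control, Ezh2 (0.016) for Jarid2 KO against Control. With cells of 10 or more Jchain UMIs left out this was Ezh2 (0.0198) for Jarid2 KO against Control. With only genes of at least 10 CPM these were Ezh2 (0.0022) for Jarid2 KO against Control. With 1 library left out the ranges were Ezh2 for Jarid2 KO against Control -0.042 to 0.037, Cebpa for Jarid2 KO against Control -0.58 to 0.31, Mpo for Ezh2 KO against Control -0.49 to 0.79, Cebpa for Ezh2 KO against Control -0.64 to 0.25, Jarid2 for Ezh2 KO against Control -0.13 to 0.20, Cebpa for Jarid2 KO against Ezh2 KO -0.23 to 0.33, Cebpa for the Jarid2 interaction -0.063 to 0.20, Cebpa for the Ezh2 interaction -0.41 to 0.12, for the Ezh2 interaction (Jarid2, Ezh2 KO effect, MPP3 gate minus CD135-high neighbour) -6.459e-06 to 0.10. Elane, Anxa3, Ly6c2, Trbc1, Ighm and Iglc1 against the CD150-high neighbour, Cysltr1 in the Jarid2 interaction and Stxbp6 in Jarid2 KO against Ezh2 KO were called in the setting reported above. Of the other values for named results, 275 kept their direction and lost the threshold, 32 gained it and 2218 stayed on the same side. With sums of 3263222 to 7682261 UMIs, a gene at 10 CPM had a counting error of 11.4 to 17.5% per library.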
